A study of Homo sapiens with 8 samples.

Results

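The 9 genes described here belong to the primary (azurophil) granule or are made with it: CTSG, ELANE, PRTN3, AZU1, PRSS57, MPO, CST7, SRGN and CLEC11A. They were chosen by symbol, and all 9 members were found among the 16726 genes listed for both cell lines. Poly(A) RNA was sequenced from NB4 and MonoMac 6 (MM6) cells, 2 human acute myeloid leukaemia lines. The labels give acute monocytic leukemia as the tumour of both, whereas NB4 is known as an acute promyelocytic leukaemia line. Each line carried either shM14, a single hairpin against METTL14 (labelled shM14-#2), or shNS, a non-specific control hairpin. Both hairpins were delivered by pLKO.1 lentivirus and all cells were kept in puromycin at 0.5 µg/mL for 2 passages, so the control cells were also transduced and selected. Each of the 4 groups had 2 libraries, 8 in all. No label ties the 2 libraries of a group to separate transductions, so p-values measure the spread between these libraries, which may be technical.

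Neutrophil precursors make most of these proteins at the promyelocyte stage and pack them into primary granules before later granules form. Cathepsin G (CTSG), neutrophil elastase (ELANE), proteinase 3 (PRTN3) and PRSS57, also called neutrophil serine protease 4, are chymotrypsin-like serine proteases, and azurocidin (AZU1) is a relative that has lost its catalytic activity. Myeloperoxidase (MPO) is a haem enzyme that makes hypochlorous acid, serglycin (SRGN) is the proteoglycan that holds basic granule proteins, and cystatin F (CST7) inhibits the cysteine cathepsins that mature the proteases. CLEC11A is a secreted growth factor of the C-type lectin family made by myeloid precursors. METTL14, the hairpin's target, binds METTL3, and together they place N6-methyladenosine on mRNA. That mark was not measured in these libraries.

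In the RefSeq gene order of GRCh38.p14, AZU1, PRTN3 and ELANE stand side by side on the short arm of chromosome 19, and PRSS57 lies between FSTL3 and PALM on the same arm. CTSG lies between CMA1 and GZMH on chromosome 14. MPO is on chromosome 17, CST7 on 20, SRGN on 10 and CLEC11A on 19. RefSeq promoter windows were at hand for 5 of the 9 genes. The 250 bases before the start are shown for the 4 proteases among them, because in NB4 PRTN3 rose and the other 3 fell. Capitals mark matches, on either strand, to GAGGAA (the core bound by PU.1 and other ETS factors), TTNNGNAA (a C/EBP half-site pair) or TGTGGT (RUNX). The windows, each printed 5′ to 3′ on the gene's own strand, are chr14:24576251-24576500 (minus) for CTSG, chr19:840749-840998 (plus) for PRTN3, chr19:827587-827836 (plus) for AZU1 and chr19:695453-695702 (minus) for PRSS57.
CTSG: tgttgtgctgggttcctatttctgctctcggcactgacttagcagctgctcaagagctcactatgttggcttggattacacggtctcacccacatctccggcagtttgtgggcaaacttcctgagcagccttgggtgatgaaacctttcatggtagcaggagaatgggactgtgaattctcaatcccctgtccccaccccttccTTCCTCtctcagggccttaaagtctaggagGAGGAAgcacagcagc
PRTN3: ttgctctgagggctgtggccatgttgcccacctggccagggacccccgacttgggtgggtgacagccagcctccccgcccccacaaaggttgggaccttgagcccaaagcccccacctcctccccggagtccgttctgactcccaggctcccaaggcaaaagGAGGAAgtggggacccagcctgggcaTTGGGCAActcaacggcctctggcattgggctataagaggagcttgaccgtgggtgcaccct
AZU1: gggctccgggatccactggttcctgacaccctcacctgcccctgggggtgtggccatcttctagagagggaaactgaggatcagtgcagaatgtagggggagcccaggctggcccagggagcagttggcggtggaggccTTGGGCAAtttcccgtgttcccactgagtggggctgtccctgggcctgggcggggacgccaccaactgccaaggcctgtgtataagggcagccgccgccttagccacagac
PRSS57: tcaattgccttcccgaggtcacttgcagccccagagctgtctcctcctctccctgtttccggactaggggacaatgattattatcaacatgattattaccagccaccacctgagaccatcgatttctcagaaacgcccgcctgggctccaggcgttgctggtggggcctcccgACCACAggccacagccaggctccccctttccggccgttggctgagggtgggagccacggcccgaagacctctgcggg

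The CTSG window held 2 matches to GAGGAA, the first beginning 46 bases and the second 16 bases before the start. PRTN3 held 1 match to GAGGAA and 1 to TTNNGNAA, and the AZU1 window also held 1 match to TTNNGNAA. In both neighbours the TTNNGNAA match reads TTGGGCAA. PRSS57 held 1 match to TGTGGT. The MYB motif AACNG, left in lower case, matched once in CTSG, 2 times in PRSS57 and PRTN3, 3 times in AZU1 and once in CLEC11A. Of 35116 promoter windows of the same length, 23.6% held GAGGAA, 33.2% held TTNNGNAA, 11.0% held TGTGGT and 70.6% held AACNG. A match describes letters only and is not a measured binding site.

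The libraries held 23272126 to 28814911 reads assigned to genes, and the 9 members together took 0.841% to 1.01% of them. METTL14 was at 14.1 and 12.5 RPKM (reads per kilobase of gene per 1000000 reads) in the NB4 shNS libraries and at 8.35 in both NB4 shM14 libraries. In MM6 it was at 12.5 and 13.4 RPKM with shNS and 6.54 and 6.55 with shM14. The log2 difference of METTL14 was -0.61 (SE 0.07, limma adjusted p = 0.0024) in NB4 and -0.88 (SE 0.13, limma adjusted p = 0.088) in MM6. The 9 monocyte and macrophage markers summed to 50.8 to 52.7 RPKM in NB4 shNS and 146.6 to 147.0 RPKM in NB4 shM14. All 7 that were tested there rose, where 22.1% of all genes tested in NB4 were called higher. In MM6 their sum ran from 5913 to 9316 RPKM with shNS and from 8317 to 14592 with shM14. There 7 of 9 were higher in both shM14 libraries and none passed the test. Of all genes tested in MM6, 44.8% had groups that did not overlap, in either direction. LYZ, which is also on the list of other primary granule genes, made up most of the MM6 sum. It was at 9206 and 5836 RPKM with shNS and 14301 and 8164 with shM14. Of 5 mature neutrophil markers, 3 were listed, and their sum was 0.276 to 0.614 RPKM over all libraries. From NB4 shNS to shM14, the 4 listed T and NK cell markers went from sums of 46.1 and 48.4 RPKM to 59.9 and 62.3. Only 1 of them was tested there, and it rose. The sum of the 2 listed eosinophil markers there went from 316 and 327 RPKM to 276 and 281, but the 2 moved in opposite directions. EPX rose (log2 change 1.27, limma adjusted p = 0.00099) and PRG2 fell (-0.23, limma adjusted p = 0.015), both named after their values were seen. The 1 listed megakaryocyte marker went from 5.83 and 6.34 RPKM to 2.15 and 2.32. Each pair gives the lowest and highest library of a group. Mast cell and basophil markers in MM6 summed to 47.6 to 57.9 RPKM with shNS and 31.2 to 35.9 with shM14. Nearly all of this was TPSAB1, at 57.8 and 47.3 RPKM with shNS and 35.7 and 31.0 with shM14. Its change did not pass (limma adjusted p = 0.18), and its values are uncertain, as given below for the tryptases. Erythroid and B cell markers summed to at most 2.43 RPKM in any library. In bulk RNA, fewer cells of a type and less RNA per cell cannot be told apart, and the part of these marker shifts in the results below was not tested.

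The control cells of the 2 lines differed in the levels of the granule genes, and ELANE was the one member near absent from a line. MPO led in NB4 shNS, at 2399.6 and 2489.9 RPKM, and was the lowest member on average in MM6 shNS, at 69.6 and 103 RPKM. ELANE stood at 1599 and 1709 RPKM in MM6 shNS, level with AZU1 at 1703 and 1597, whereas NB4 shNS had ELANE at 0.0462 and 6.83 RPKM and AZU1 at 79.7 and 80.6. PRTN3 was at 889 and 903 RPKM in MM6 shNS against 46.1 and 44.1 in NB4 shNS. SRGN was at 4320.0 and 3337 RPKM in MM6 shNS, the highest member there, and at 636 and 628 in NB4 shNS. RPKM is scaled to each library's own total, which sets the level across the 2 lines' tables.

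All 9 members passed the comparison of control lines (limma on log2(RPKM + 1), Benjamini-Hochberg over 12450 genes, 2 libraries against 2). MPO and CLEC11A were higher in NB4 and the other 7 lower, where 36.8% of all genes tested were called higher and 34.3% lower. MPO was higher in NB4 by 4.83 on the log2 scale (SE 0.20, limma adjusted p = 5.1e-05) and CLEC11A by 0.65 (SE 0.11, limma adjusted p = 0.0038). AZU1 differed by -4.35 (SE 0.09) and its neighbour PRTN3 by -4.28 (SE 0.09), each with a limma adjusted p of 1.4e-05. ELANE differed by -9.17 (SE 0.92, limma adjusted p = 0.00066), a size that rests on 1 and 182 reads in the NB4 control libraries, whose source is in doubt, as described below for ELANE. SRGN differed by -2.58, CTSG by -1.86, CST7 by -1.05 and PRSS57 by -0.68. The members' median difference was -1.86, against 0.03 over all genes tested.

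The order of levels also differed. In NB4 shNS the order ran MPO, SRGN, CLEC11A, AZU1, PRSS57, CST7, PRTN3, CTSG and ELANE, and only PRTN3 and CTSG overlapped among neighbours. In MM6 shNS it ran SRGN, ELANE, AZU1, PRTN3, CLEC11A, CTSG, PRSS57, CST7 and MPO. There ELANE overlapped with AZU1, and each of the members from CLEC11A down overlapped with the next. With shM14, PRTN3 stood above AZU1 in NB4, and PRSS57 was on average the lowest member in MM6, overlapping with CTSG.

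**Figure D1:**
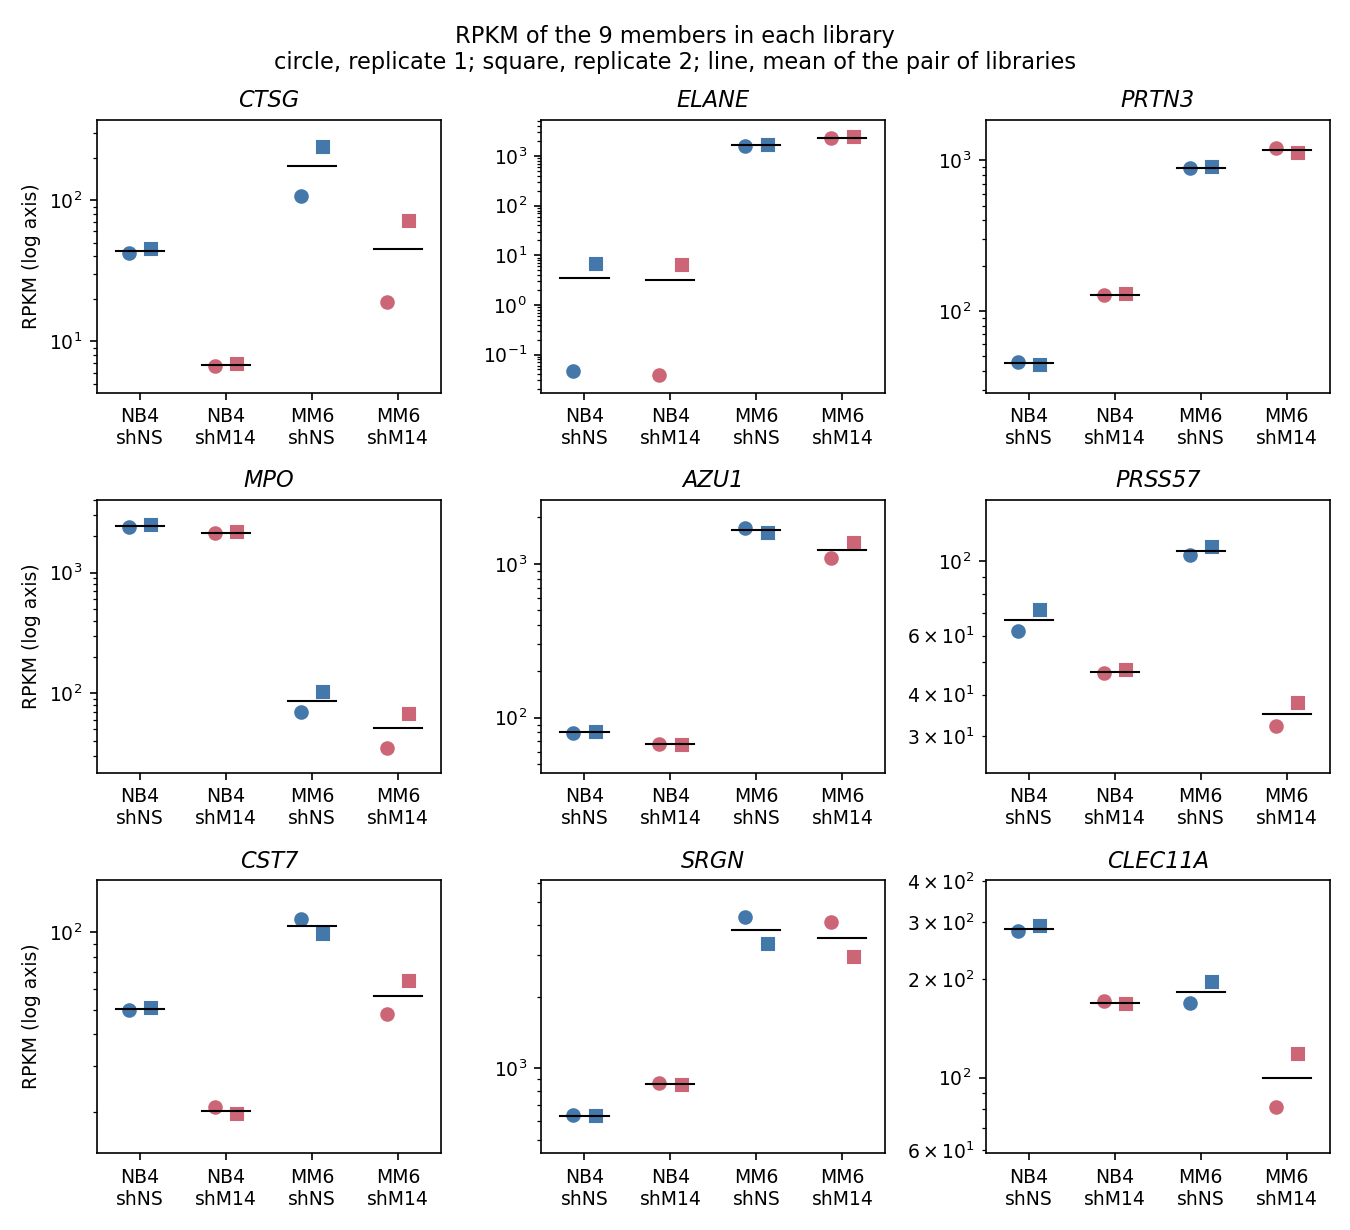
RPKM (log axis) of each member in the 8 libraries, blue for shNS and red for shM14, with circles for replicate 1, squares for replicate 2 and a line at the mean of each group. CTSG, MPO, AZU1, PRSS57, CST7 and CLEC11A sit lower with shM14 in both lines. PRTN3 sits higher in both, and ELANE in NB4 splits by replicate number.

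In NB4 cells with the METTL14 hairpin, CTSG fell most among the members and PRTN3 rose, so that these 2 proteases moved in opposite directions. CTSG was at 41.9 and 44.9 RPKM with shNS and 6.73 and 6.85 with shM14. The groups were far apart, and the log2 change was -2.51 (SE 0.05, limma adjusted p = 9.4e-05). PRTN3 was at 46.1 and 44.1 RPKM with shNS, level with CTSG, and at 127 and 129 with shM14, a log2 change of 1.48 (SE 0.05, limma adjusted p = 0.00016). In control cells the 2 messages were level; with the hairpin PRTN3 stood well above CTSG.

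PRSS57 was at 61.9 and 71.5 RPKM in NB4 shNS and 46.3 and 47.3 in shM14, and fell by 0.50 on the log2 scale (SE 0.08, limma adjusted p = 0.0067). AZU1 was at 79.7 and 80.6 RPKM with shNS and 66.9 and 66.8 with shM14, and fell by 0.26 (SE 0.04, limma adjusted p = 0.0086). The gap in AZU1 was small but wider than the spread in either group. The call for AZU1 was lost without shM14 replicate 1 (limma adjusted p = 0.057) or replicate 2 (0.057) and with all 8 libraries in 1 model (0.19). ELANE, whose 2 NB4 libraries in each group were far apart, gave -0.04 (SE 1.27, limma adjusted p = 0.98).

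Among the partners, CST7 changed most in NB4. It was at 49.6 and 50.9 RPKM with shNS and 20.8 and 19.5 with shM14, and fell by 1.28 on the log2 scale (SE 0.05, limma adjusted p = 0.00028). CLEC11A went from 282 and 291 RPKM to 172 and 168, and fell by 0.75 (SE 0.05, limma adjusted p = 0.00064). SRGN was the partner that rose, from 636 and 628 RPKM to 870.4 and 852, by 0.45 (SE 0.05, limma adjusted p = 0.0020). With all 8 libraries in 1 model the call for SRGN was lost (limma adjusted p = 0.16).

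MPO was at 2399.6 and 2489.9 RPKM in NB4 shNS and at 2117 and 2152 in shM14, so it remained the most abundant member. It fell by 0.20 on the log2 scale (SE 0.05, limma adjusted p = 0.024). That call was lost without shNS replicate 2 (limma adjusted p = 0.060), without shM14 replicate 1 (0.14) or 2 (0.10), and with all 8 libraries in 1 model (0.74).

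In all, 2 members rose and 6 fell in NB4 and 1 did not pass, where 22.1% of the 11531 genes tested were called higher and 25.2% lower. The shNS and shM14 libraries did not overlap for 8 members, as for 77.2% of all genes tested in NB4. The members' median log2 change was -0.26, against -0.01 over all genes tested.

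In MM6 no member passed the test across all genes (limma, 11895 genes tested), although 7 of the 9 were under an unadjusted p of 0.05, as were 1779 genes. In that comparison 0.0504% of genes were called higher and 0.0252% lower. The model changed this count, most of all with the replicate number as a block, which is given in the closing section. With voom on the recovered reads, 1 member passed, PRSS57 (limma adjusted p = 0.043). With all 8 libraries in 1 model, 4 members passed: PRSS57 (limma adjusted p = 0.0013), CST7 (0.014), CLEC11A (0.024) and PRTN3 (0.032). That model pools the spread of both lines, so MM6 changes are judged partly by NB4 replicates. Over the genes tested in each line, the standard deviation of the log2 difference between the shNS replicates was 0.152 in NB4 and 0.353 in MM6. The shNS and shM14 libraries of MM6 did not overlap for 8 members, as for 44.8% of all genes tested there, and among the 8 only ELANE and PRTN3 lay higher with shM14. The members' median log2 difference was -0.79, against -0.03 over all genes tested.

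PRSS57 in MM6 was at 104 and 110.4 RPKM with shNS and 32.3 and 37.7 with shM14, a log2 difference of -1.59 (SE 0.15, limma adjusted p = 0.057). The 2 groups were far apart and each was tight. CTSG was at 107 and 239 RPKM with shNS and 18.9 and 70.7 with shM14, a difference of -2.09 with a wide error (SE 0.67, limma adjusted p = 0.25). Replicate 2 was the higher library of CTSG in both groups.

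ELANE in MM6 was at 1599 and 1709 RPKM with shNS and 2275 and 2409.7 with shM14, a log2 difference of 0.50 (SE 0.13, limma adjusted p = 0.19). PRTN3 was at 889 and 903 RPKM with shNS and 1217 and 1114 with shM14, a difference of 0.38 (SE 0.13, limma adjusted p = 0.29). Their neighbour AZU1 lay the other way, at 1703 and 1597 RPKM with shNS and 1090.2 and 1359 with shM14, a difference of -0.44 (SE 0.16, limma adjusted p = 0.31). The 3 adjacent genes therefore did not share a direction in MM6, and none of these differences passed.

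CST7 in MM6 was at 113 and 98.7 RPKM with shNS and 48.3 and 64.6 with shM14 (log2 difference -0.90, SE 0.19, limma adjusted p = 0.15). CLEC11A was at 169 and 196 RPKM with shNS and 81.4 and 118 with shM14 (-0.89, SE 0.21, limma adjusted p = 0.17). MPO was at 69.6 and 103 RPKM with shNS and 35.1 and 67.0 with shM14 (-0.79, SE 0.35, limma adjusted p = 0.37). All 3 were lower in both shM14 libraries than in either shNS library. SRGN was at 4320.0 and 3337 RPKM with shNS and 4116 and 2926 with shM14, and the groups overlapped (-0.13, SE 0.23, limma adjusted p = 0.87).

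In the authors' deposited table for MM6, 4 members had an adjusted p under 0.05, all lower, where 1.69% of all genes were called lower. The authors' deposited table gives PRSS57 an adjusted p of 2.9e-08, CTSG 0.0048, CST7 0.011 and CLEC11A 0.029. Their log2 fold changes in the authors' deposited table are -1.58, -1.94, -0.88 and -0.85. The authors' deposited table was made with a test that is not given in the sources used here.

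**Figure D2:**
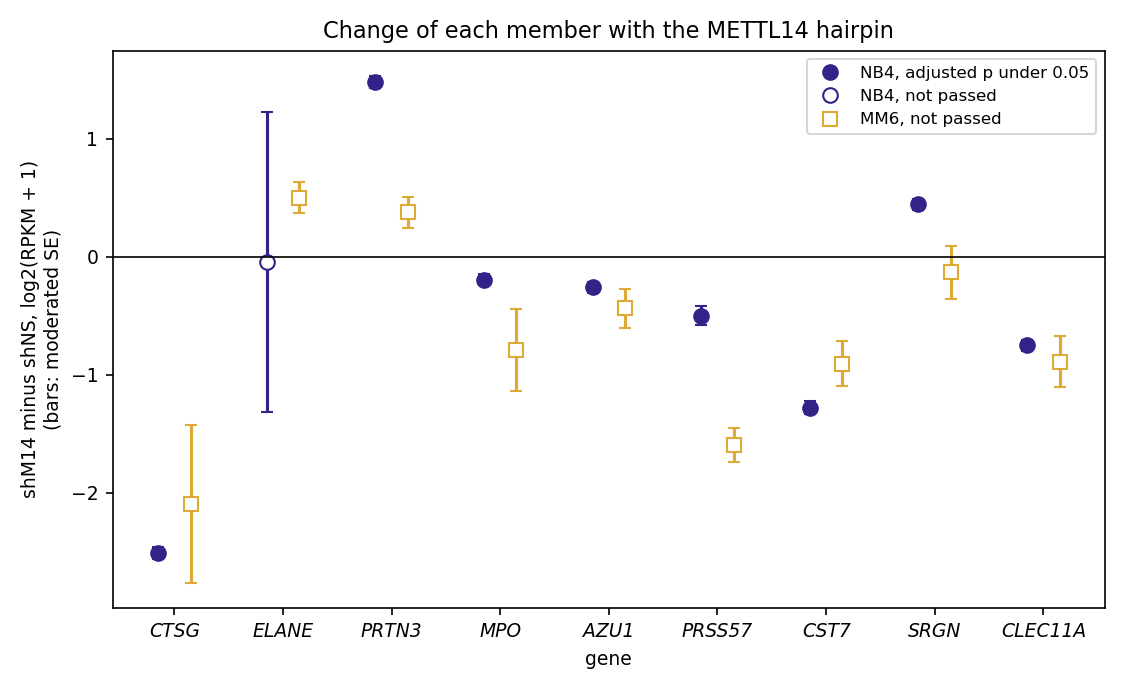
Difference between shM14 and shNS on the log2(RPKM + 1) scale for each member, circles for NB4 and squares for MM6, bars showing the moderated standard error and filled symbols an adjusted p under 0.05. In NB4, 8 symbols are filled and no MM6 symbol is, and PRTN3 and PRSS57 show the widest gaps between lines relative to their errors.

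The difference between the lines' changes was tested directly over all 8 libraries. This fit also pools the spread of both lines, so each error mixes the tighter NB4 replicates with those of MM6. The PRTN3 change was smaller in MM6, with a difference of -1.11 on the log2 scale (SE 0.11, limma adjusted p = 0.012). The PRSS57 change was further below 0 in MM6, with a difference of -1.09 (SE 0.16, limma adjusted p = 0.024). These 2 of 9 members passed, both in the negative direction, where 1.39% of 12804 genes were called lower and 1.53% higher. Without any one of the 4 NB4 libraries neither call held, with limma adjusted p from 0.10 to 0.12 for PRTN3 and from 0.11 to 0.16 for PRSS57. Without MM6 shNS replicate 1 or 2, PRSS57 had limma adjusted p of 0.052 and 0.053.

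The other 7 members did not pass. CST7 differed by 0.37 (SE 0.20, limma adjusted p = 0.38), SRGN by -0.58 (SE 0.26, limma adjusted p = 0.28) and MPO by -0.60 (SE 0.42, limma adjusted p = 0.51). For CTSG the difference was 0.42 with an SE of 0.84, so a wide range of differences between the lines could not be told apart. The NB4 part of each difference shares its libraries with the NB4 results above.

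The makeup of the 5 serine protease family messages differed between shNS and shM14 in both lines. Their summed RPKM was 229.6 and 248 in NB4 shNS and 247 and 256 in NB4 shM14. The NB4 sums of the replicates 2 include ELANE at 6.83 RPKM with shNS and 6.45 with shM14, from reads whose source is in doubt. In MM6 the summed RPKM was 4402 and 4559 with shNS and 4633 and 4991 with shM14, higher in both shM14 libraries. In NB4, CTSG went from 18.2% and 18.1% of the sum to 2.73% and 2.67%, and PRTN3 from 20.1% and 17.8% to 51.4% and 50.3%. In MM6, ELANE went from 36.3% and 37.5% of the sum to 49.1% and 48.3%, and AZU1 from 38.7% and 35.0% to 23.5% and 27.2%. Shares sum to a fixed total, so a rise in one lowers the others, and they are given as a description with no test.

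**Figure D3:**
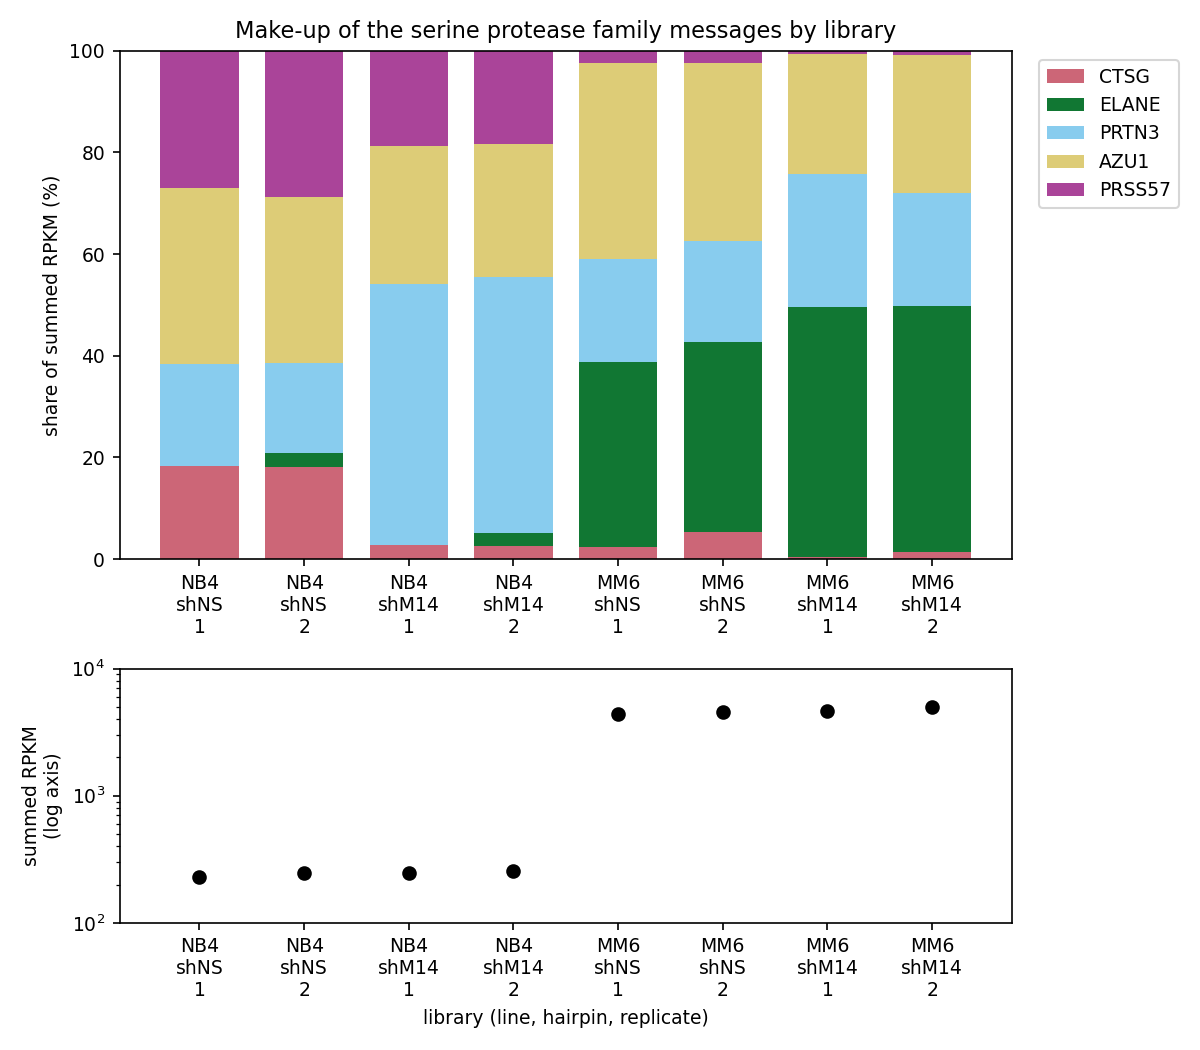
Share (%) of each serine protease family gene in the summed RPKM of the 5 genes in each library, as stacked bars, with the summed RPKM itself on a log axis underneath. The PRTN3 segment takes 51.4% and 50.3% in NB4 shM14, and the sums run from 229.6 to 256 in NB4 and from 4402 to 4991 in MM6.

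ELANE in NB4 followed the replicate number and not the hairpin. It had 1 read in shNS replicate 1 and 1 in shM14 replicate 1, against 182 and 148 reads in the replicates 2. PRTN3, its neighbour and close relative, had 1081 reads in the shNS library where ELANE had 1. By a rule set after these values were seen (at most 3 reads in both NB4 replicates 1 and at least 20 in both replicates 2), 2 genes showed the pattern, ELANE and APP, and 0 showed the reverse. APP, the amyloid precursor protein gene, had 1 and 0 reads in the replicates 1 and 76 and 40 in the replicates 2.

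Both genes are abundant in MM6. As a percentage of the mean MM6 level, ELANE was at 0.342% in NB4 shNS replicate 2 and 0.323% in shM14 replicate 2, and APP at 0.390% and 0.238%. Another 9 genes were above 50 RPKM in MM6 and under 0.2 RPKM in the NB4 replicates 1. In the NB4 replicates 2 they lay between 0% and 0.429% of their MM6 level, with a median of 0.0444%. Whether the ELANE and APP reads in the replicates 2 came from NB4 cells or were carried over from MM6 libraries was not tested, so the NB4 levels of ELANE may not be those of NB4 cells.

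**Figure D4:**
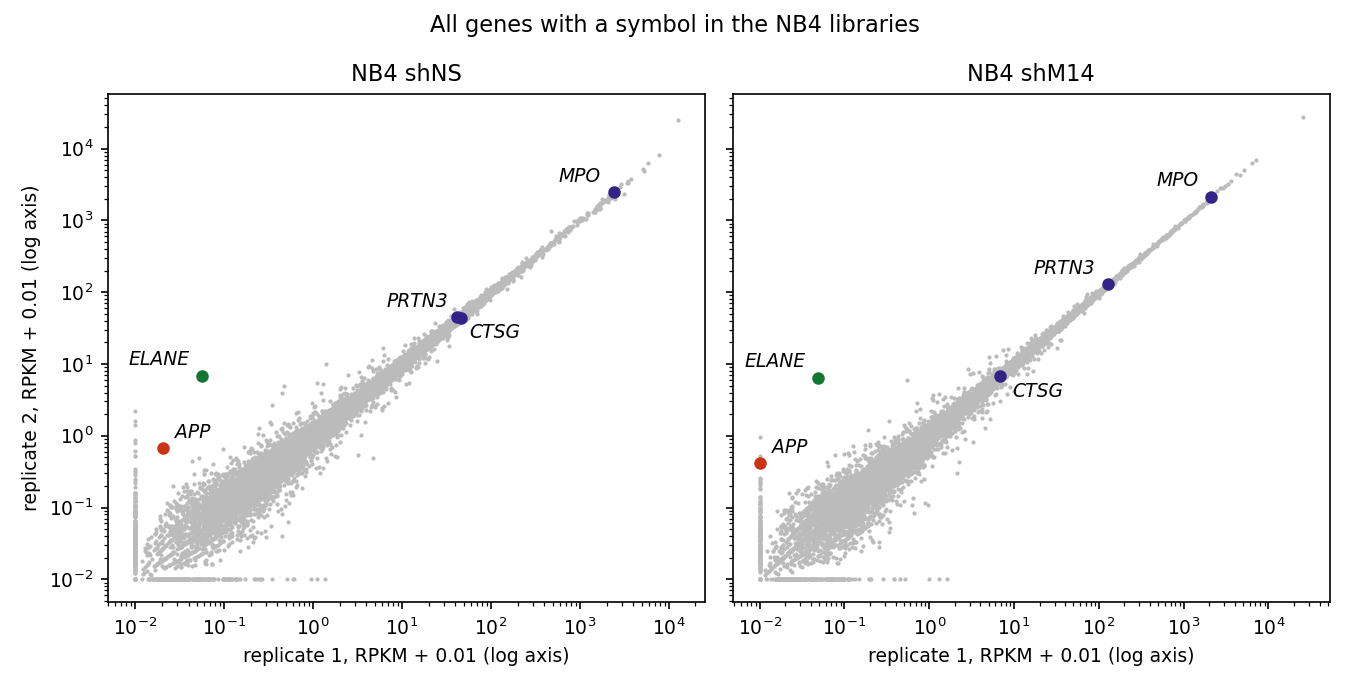
RPKM + 0.01 of every gene with a symbol in replicate 1 (x) and replicate 2 (y) of NB4 shNS and NB4 shM14, both axes log, with ELANE and APP marked in colour and CTSG, PRTN3 and MPO in dark blue. CTSG, PRTN3 and MPO lie on the diagonal, and ELANE lies far above it in both panels, at 0.0462 against 6.83 RPKM with shNS.

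Other primary granule and promyelocyte genes moved both ways in NB4: 10 of 16 tested rose, 4 fell and 2 did not pass, with a median log2 change of 0.40. These counts, and those of the lists that follow, are to be read against all genes tested in NB4, of which 22.1% were called higher and 25.2% lower. The list includes the eosinophil markers EPX, which rose, and PRG2, which fell. It also includes CTSC, which is counted again on the cystatin F list below. LYZ, the lysozyme gene, went from a mean of 20.6 to 84.0 RPKM (log2 change 1.98, SE 0.06, limma adjusted p = 0.00015). NKG7, a granule membrane protein gene, went from 30.4 to 55.4 RPKM (0.84, SE 0.05) and CD63, a granule membrane tetraspanin gene, from 44.3 to 77.9 (0.80, SE 0.05). PRDX4, a peroxiredoxin of the secretory pathway, went from 76.3 to 128 RPKM (0.74, SE 0.05). DEFA4, a defensin gene named after its values were seen, changed by -1.42, the lowest of this list. None of 13 tested in MM6 passed, and the median there was 0.02. CALR, the chaperone calreticulin, had the smallest p there, at 1784 and 1073 RPKM (-0.74, SE 0.20, limma adjusted p = 0.19), followed by the ribonuclease gene RNASE3 (0.41, SE 0.15).

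The later granules were little represented. Of 17 secondary and tertiary granule genes, 10 were listed and 3 tested in NB4, of which 2 rose. PTX3, a pentraxin gene, went from 6.01 to 13.7 RPKM (log2 change 1.07, SE 0.07) and MMP9, the gelatinase gene, from 208 to 344 (0.72, SE 0.05). In MM6 none of 3 passed. ORM1 was at 71.4 and 158 RPKM there (1.13, SE 0.16, limma adjusted p = 0.082) and PTX3 at 3.10 and 18.2 (2.13, SE 0.40, limma adjusted p = 0.12).

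Among the genes listed as activators of the proteases or as possible targets of cystatin F, 3 of 6 tested rose in NB4 and 0 fell. CTSC, the cathepsin that removes the activation dipeptide from the serine proteases, rose from 17.9 to 26.8 RPKM (log2 change 0.55, SE 0.05, limma adjusted p = 0.0017). CTSZ rose from 25.4 to 36.2 RPKM (0.49, SE 0.06) and CTSB from 24.1 to 30.4 (0.32, SE 0.05), while CTSS gave 0.14 (SE 0.05, limma adjusted p = 0.071). CTSL (0.18, limma adjusted p = 0.12) and CTSH (-0.10, limma adjusted p = 0.21) did not pass either. CST7 fell in NB4, and whether its product acts on the cathepsins that rose was not tested. Of 8 tested in MM6 none passed, and CTSZ gave 0.65 (SE 0.14) and CTSB 0.69 (SE 0.17).

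The list of inhibitors held serine protease inhibitors and a pair of cystatins, which inhibit cysteine cathepsins, and moved both ways in NB4, with 3 of 6 tested higher and 2 lower. The 3 that rose were both cystatins and SLPI, the secretory leukocyte protease inhibitor. SERPINB1, a cytosolic inhibitor of elastase, cathepsin G and proteinase 3, fell from 15.5 to 7.68 RPKM (log2 change -0.93, SE 0.05, limma adjusted p = 0.00042). SERPINA1, the antitrypsin gene, fell from 3.18 to 2.42 RPKM (-0.29, SE 0.05). The cystatins CST3 (0.44, SE 0.05) and CSTB (0.56, SE 0.07) rose. SLPI was low in NB4, at 0.430 and 1.22 RPKM with shNS and 2.22 and 2.37 with shM14, and rose by 0.88 on the log2 scale (limma adjusted p = 0.021). It met the filter in NB4 only through the shM14 libraries. Whether any of its NB4 reads were carried over from MM6 libraries, where it is abundant, was not tested. None of 7 tested in MM6 passed. SLPI was at 202 and 335 RPKM there (0.72, SE 0.13, limma adjusted p = 0.12).

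Of 20 transcription factors of promyelocyte granule genes, 9 rose, 4 fell and 7 did not pass in NB4, with a median of 0.13. GFI1, a repressor needed for neutrophil maturation, fell from 46.6 to 30.9 RPKM (log2 change -0.58, SE 0.05, limma adjusted p = 0.0016). PML, one partner of the fusion in NB4, fell from 11.9 to 7.63 RPKM (-0.58, SE 0.05, limma adjusted p = 0.0016). IRF8, a monocyte lineage factor, rose from 8.50 to 15.5 RPKM (0.80, SE 0.08) and CEBPA, a granulocyte lineage factor, from 32.0 to 39.7 (0.30, SE 0.05). None of the 20 passed in MM6, where CEBPD gave 0.49 (SE 0.13, limma adjusted p = 0.19). CEBPE gave 0.68 there (SE 0.15, limma adjusted p = 0.16), at 0.271 and 0.496 RPKM with shNS and 1.34 and 1.08 with shM14. It was near the floor in MM6 and met the filter only through the shM14 libraries.

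For the partners' own pathways, 11 genes of haem metabolism were tested in NB4, of which 10 serve haem synthesis. Of these 10 none rose, 4 fell and 6 did not pass. The other, HMOX1, which breaks haem down, rose from 1.81 to 4.55 RPKM (log2 change 0.98, SE 0.05), and ALAD, an early enzyme of haem synthesis, fell from 13.6 to 10.9 (-0.30, SE 0.06). Of 15 tested genes for the chondroitin sulphate chains carried by serglycin, 5 rose, 1 fell and 9 did not pass. B3GAT3, which completes the linker of the chains, rose from 10.2 to 14.0 RPKM (0.42, SE 0.05). In MM6 none of 11 haem genes and none of 16 chain genes passed.

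Of 19 tested sorting and granule biogenesis genes in NB4, 4 rose, 3 fell and 12 did not pass. GFI1, given above among the transcription factors, is 1 of the 3 that fell. RAB27A, a GTPase of granule release, rose from 18.2 to 35.0 RPKM (log2 change 0.91, SE 0.08) and UNC13D, a granule priming factor, from 13.9 to 20.1 (0.51, SE 0.05). Among genes around PRSS57 and the AZU1, PRTN3 and ELANE cluster, 2 of 12 tested rose, 1 fell and 9 did not pass. BSG rose from 143 to 191 RPKM (0.42, SE 0.05) and PALM, next to PRSS57, fell from 6.11 to 3.74 (-0.59, SE 0.08). Of the granzymes and mast cell proteases, 2 were tested in NB4, of which TPSB2 rose by 0.30 (SE 0.08) and PRF1 fell by 0.17. In MM6 none of 20, 14 and 4 genes of these lists passed. The tryptases TPSB2, TPSAB1 and TPSD1 are near-identical copies whose reads may be split, so their values are uncertain.

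**Figure D5:**
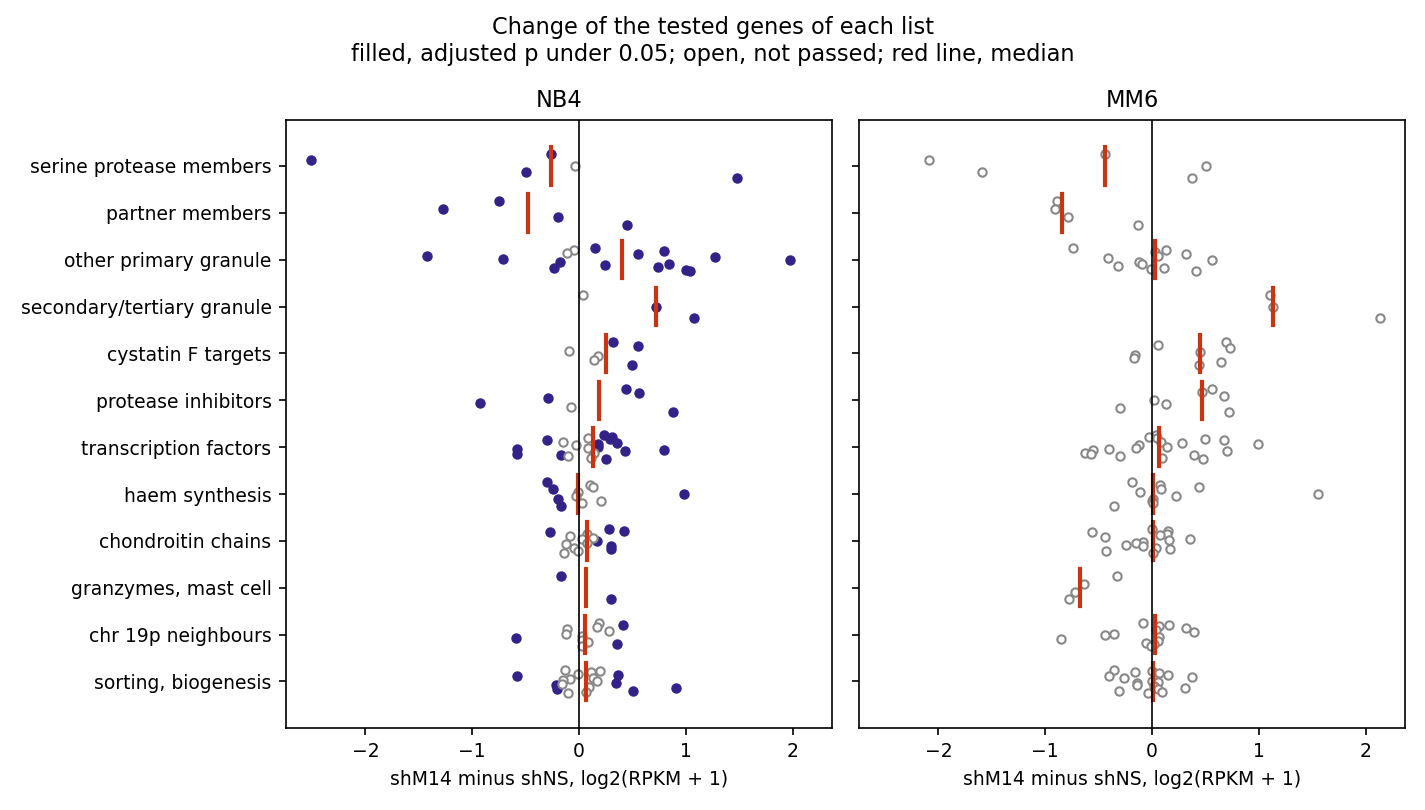
Difference between shM14 and shNS on the log2(RPKM + 1) scale for every tested gene of each list in NB4 and in MM6, filled where the adjusted p was under 0.05, with a red line at each list's median. The other primary granule list has its NB4 median at 0.40, above the medians of the members, and no MM6 symbol is filled.

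Genes with the pattern most like a member's were ranked by the root mean square difference of log2(RPKM + 1), centred over the 8 libraries, among 12796 genes. Nearest to CTSG were IFI27 (0.45), IFI44 (0.67), IFI44L (0.70), SAMHD1 (0.71) and SIGLEC1 (0.72). IFI27 had means of 34.7 and 4.997 RPKM in NB4 shNS and shM14 and of 154 and 37.8 in MM6. Among the 5 nearest to PRTN3 were STS (0.35), BCL6 (0.36) and CTSZ (0.39). Nearest to PRSS57 were HMX3 (0.15), SLC40A1 (0.18), BCL2 (0.23), ANKRD27 (0.24) and KTN1 (0.26). These distances carry no test, and all genes share the same 8 libraries.

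The members' transcripts were described after the results were seen, using the longest coding transcript of each in GENCODE 29. GC content was 57.2% to 67.7% for 8 members and 38.1% for SRGN, against a median of 48.5% over 10114 tested genes. GGACT, a common form of the N6-methyladenosine consensus, occurred 3.31 times per kilobase in SRGN, 1.93 in PRTN3 and 1.24 in MPO, and not at all in CST7. The median over those genes was 0.925 per kilobase. The remaining members had 1.41 (CLEC11A), 1.17 (AZU1), 1.13 (CTSG), 0.973 (ELANE) and 0.917 (PRSS57). These densities carry no test and say nothing of where the mark lies.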

How the data were processed

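Poly(A) RNA of the 8 libraries was read as single 50 bp reads from 100 ng total RNA, with a directional kit, per the labels' protocols. Each line has 1 deposited table. Per the file headers, the authors deposited RPKM per library, group means of normalized signal, a fold ratio, a log2 fold change and a p-value with its adjusted value. How reads were aligned and counted, on which build, and how the authors tested: not given in the sources used here.

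Whole reads were recovered from the deposited RPKM and group means (100% of values within 0.01 of a whole number). The main test was limma 3.58.1 in R 4.3.3 on log2(RPKM + 1) for genes at 1 RPKM or more in at least 2 libraries, two-sided, with Benjamini-Hochberg adjustment over all genes tested and a threshold of 0.05. On this scale, changes of genes at low RPKM come out too small. Each line was fitted alone, the difference between lines over all 8 libraries and the control lines over their 4 libraries. Alternatives were a pseudocount of 0.1, no filter or a minimum of 5 RPKM, median-of-ratios scaling, voom on the recovered reads with TMM factors, all 8 libraries in 1 model, the replicate number as a block, and leaving out each library.

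On data simulated from the NB4 means, with known changes, an assumed spread and independent replicates, the test recovered most changed genes. False calls exceeded the nominal threshold. They were mostly genes of few reads that still passed the RPKM filter, and were rare among genes of 100 reads or more. All members had at least 157 reads in every library, ELANE in NB4 excepted. The counts of called genes over each whole table, and so the background percentages, may therefore be too high.

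The 27 genes listed by ID with no symbol were kept in the fits. Members and lists were chosen with earlier results of these data known. Named genes were all 9 members, METTL14, up to 4 genes of each list with the smallest p in NB4 and up to 2 in MM6, and the 5 most similar genes of CTSG, PRTN3 and PRSS57, of which 2 for PRTN3 are not reported here. Not every list gene picked by this naming rule is given above. CTSL, CTSH, EPX, PRG2, DEFA4, APP and, for NB4, SLPI were named outside the rule. Promoter windows are from RefSeq, GRCh38.p14.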

Additional observations from a re-analysis of the deposited data

Results flagged for a closer look

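Of the 9 members, 2 changed differently in the 2 lines by the test of the difference itself. For PRTN3 the change in MM6 minus that in NB4 was -1.11 on the log2 scale, with 0.38 in MM6 and 1.48 in NB4 (limma adjusted p = 0.012). For PRSS57 it was -1.09, with -1.59 in MM6 and -0.50 in NB4 (limma adjusted p = 0.024). Neither call held without any one of the NB4 libraries, as given above.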

How the results depend on the processing

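Of 412 member values under the alternatives, 373 kept their direction and side of the threshold, 18 lost a call, 13 gained one and 8 changed sign. The sign changes came from leaving out 1 library, where a group of 1 is assumed to vary like the others: the ELANE change in NB4 ran from -1.49 to 1.38, the SRGN change in MM6 from -0.38 to 0.12 (0.06 without shNS replicate 1), and the differences between lines from -0.51 to 1.34 for CTSG (-0.16 without MM6 shNS replicate 1), from -0.91 to 2.00 for ELANE (-0.88 without NB4 shM14 replicate 1) and from -0.40 to 0.13 for CLEC11A. ELANE had no value in the fits that left it under the filter. With all 8 libraries in 1 model, 1658 genes against 5460 were called in NB4 and 1311 against 9 in MM6. There 1 member was called higher and 4 lower in NB4, and 1 higher and 3 lower in MM6. In MM6, 0 genes were called with no filter, 4 at 5 RPKM and 3 with median-of-ratios scaling, and voom called 1 member lower. For the difference between lines, 203 genes were called at a pseudocount of 0.1 and 243 with voom, against 374. Leaving out each library gave 3049 to 4637 genes in NB4, 5 to 23 in MM6, 5 to 742 for the difference and 5569 to 8967 for the control lines (8855 with all), and 0 to 2 members lower in the difference. The cause of these shifts was not tested, apart from fewer libraries or genes. Equal replicate numbers are not stated to pair libraries; the correlation of their deviations was 0.0797 in NB4 and 0.701 in MM6. With the replicate block, 1405 genes were called in MM6, with 1 member higher (ELANE, limma adjusted p = 0.032) and 5 lower (PRSS57 0.0032, CTSG 0.0049, CLEC11A 0.013, MPO 0.018, CST7 0.025). For the difference the block gave 1143 genes, with 1 member higher (ELANE, 0.032) and 3 lower (PRTN3, PRSS57 and SRGN, the last at 0.032). ELANE in NB4 was the member with 3 or fewer reads in any library.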
